A study of Mus musculus with 12 samples.

Results

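The comparison described here set activated CD8+ T cells that expressed Kdm5d against activated CD8+ T cells that lacked it. Kdm5d is carried by the Y chromosome and encodes a demethylase that removes methyl groups from lysine 4 of histone H3. The members were the 6 samples of a single count table of the series, of 12 samples in all. They were split by the raw count of Kdm5d, which was 0, 2 and 0 in the 3 samples titled Female and 4755, 4584 and 4616 in the 3 samples titled Male. The split therefore followed the titles, and those counts chose the groups and were not tested.

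All 6 samples held CD8+ T cells of the OT-1 line, mice with a transgenic T cell receptor that recognizes a peptide of ovalbumin. The cells were taken from spleen and activated for 3 days with beads that bind CD3 and CD28, in medium with mouse recombinant IL2. Female and Male received the same stimulus; only samples not described here were electroporated. Total RNA was sequenced after removal of ribosomal RNA. The age of the mice, their number and the strain background of the line were not given in the sources used here. Nothing said that the 3 samples of a group came from separate mice, so p-values measure the spread between these samples, which may be technical. The groups also differed in sex as a whole, with all other genes of the sex chromosomes and the hormonal setting of the donors. The part of Kdm5d in any difference cannot be told apart from these. Should each group have come from a single donor, culture or preparation, a difference between those could not be told apart from sex either.

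Total counts, which set the precision, were between 85633225 and 96594439 in Female and between 87925263 and 93502333 in Male. Log2 levels of autosomal genes correlated at 0.9859 to 0.9877 across genes within the groups and at 0.9712 to 0.975 between them, and the first principal component, 51.3% of the variance, separated Female from Male. The variance of raw counts between samples of a group was on average 8.38 times the mean in Female and 6.69 in Male for genes of moderate count. Differences in total count are part of it, and the part of counting noise was not tested. Cd8a, the alpha chain of the CD8 coreceptor, was at 539, 536 and 535 CPM in Female and 500.3, 506 and 492 CPM in Male. Of 16 genes of T cell identity, all were detected, 2 were called higher and 11 lower in Male, with a median log2 fold change of -0.16. Levels are in CPM, counts per 1000000 of the library. Of 47 markers of other cell types, 22 passed the low-count filter. Of the other 25, 14 had 0 counts in each sample, among them the B cell gene Ms4a1, the myeloid genes Cd14, S100a8 and S100a9 and the hemoglobins, and no count exceeded 20. Sums cover only the markers that passed the filter. For B cells, 3 of 7 markers summed to 607 to 613 CPM in Female and 303 to 322 CPM in Male, nearly all Ighm. The sums were 2.37 to 3.16 CPM and 3.48 to 3.57 CPM for 3 of 10 myeloid markers. They were 5.42 to 6.79 CPM and 0.984 to 1.44 CPM for 2 of 8 erythroid and platelet markers. Low levels of the platelet genes Pf4 (1.19, 0.861 and 0.802 CPM in Female and 0, 0 and 0.023 CPM in Male) and Itga2b (5.59, 4.74 and 4.62 CPM in Female and 1.21, 1.44 and 0.961 CPM in Male) were higher in Female. Cd4 was at 0.201, 0.149 and 0.195 CPM in Female and 0, 0 and 0 CPM in Male. Zbtb7b, the factor of the CD4 lineage, fell from 85.1 ± 1.96 CPM in Female to 51.6 ± 1.72 CPM in Male (SD, n = 3, log2 fold change -0.72, edgeR adjusted p 2.69e-08), so the 2 CD4 T cell markers summed to 84.1 to 87.6 CPM in Female and 49.9 to 53.4 CPM in Male. The sums of 4 of 6 stromal and endothelial markers were 44.6 to 46.6 CPM and 39.6 to 41.0 CPM, nearly all Pecam1. In them Col1a2 rose between trace levels (0.118, 0.160 and 0.144 CPM in Female and 0.524, 0.313 and 0.497 CPM in Male). Dendritic and NK cell markers, 3 of 6 each, summed to at most 4.69 CPM in any sample. The 2 gamma-delta T cell markers, mostly Trdc, summed to 119.6 to 123.4 CPM and 125 to 134 CPM. Itgam, a myeloid marker left out of the sum by the filter, had 20, 7 and 14 counts in Female and 0 in each Male sample. The part of these markers in the results was not tested. In bulk RNA, fewer cells of a type and less RNA per cell cannot be told apart.

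A CD8 T cell that meets its antigen leaves quiescence: naive genes under TCF1, KLF2 and FOXO control are shut down, and the cell grows, divides and arms itself with granzymes, perforin and cytokines. Growth is paid for by aerobic glycolysis, the making of serine, nucleotides, fatty acids and cholesterol, and a larger output of ribosomes and mitochondria. IL2 acts through STAT5 and sustains this program, while CTLA4 and PD-1 restrain it. Type I interferon acts in parallel through STAT2 and IRF9 in a complex of factors that switches on antiviral genes.

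Male cells were higher for effector, interferon-stimulated, sterol and biosynthetic genes, and lower for genes of the naive and quiescent state. Of 19508 autosomal genes tested, 9731 (49.9%) were called, that is, had an edgeR quasi-likelihood p adjusted by Benjamini-Hochberg under 0.05. Log2 fold changes are of Male over Female, with their standard error (SE). Of all tested, 23.6% were higher and 26.3% lower in Male. At least 2-fold differences were called in 7.28%, with 3.48% higher and 3.81% lower. The CPM values of the groups did not overlap for 58.4% of genes. With differences this common, a call alone did not set a gene apart, and the counts of the gene lists are to be read against these shares. Calls were more frequent still in fits without the weakest or noncoding genes. With a mean of at least 2 CPM, 8549 of 11931 genes were called, 4281 higher and 4268 lower. With protein-coding genes only, 8263 of 12691 were called, 4118 higher and 4145 lower. A list of well-expressed coding genes therefore holds more calls than the shares of all genes. The median log2 fold change of all autosomal genes was 0.01 and the median of its size was 0.33. In all, 49 lists held 1238 members, some of them in several lists. Of 1196 tested, 652 were higher, 323 lower and 221 not called. Some counts are uncertain because over 10% of a gene's sequence is shared or its exons overlap another gene, and the handling of such reads and of strand was not given. Beside those marked at their values, this touches Aldoa, Bak1, Fosl1, Il12rb2, Ifng, Stat4, Bnip3, Cfl1, Ctsd, Etv5, Ccnb1, Plk1, Pcna, Nop56, Odc1 and Prdx1. An overlap with exons of the opposite strand touches Txnip, Lef1, Rbl2, Rb1, Xcl1, Cd7, Cish, Nfkb2, Lpcat3 and Mat2a.

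**Figure D1:**
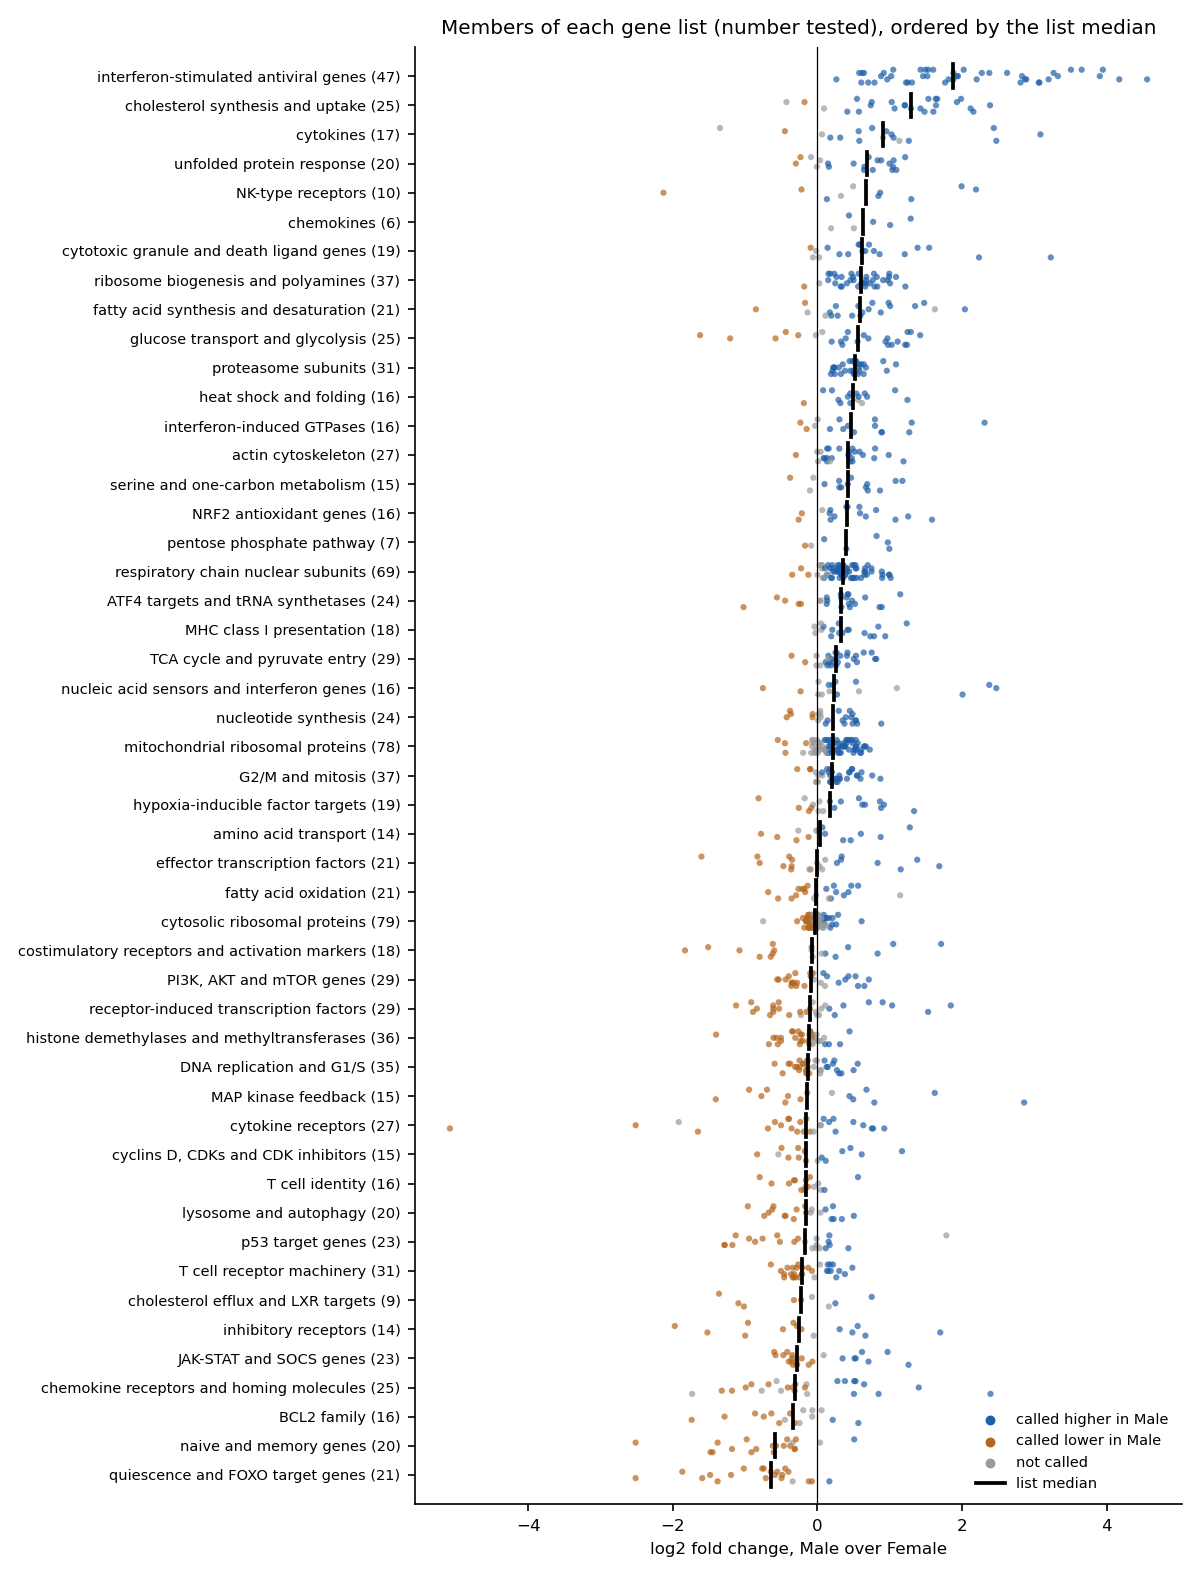
Log2 fold change of Male over Female (x axis) for each tested member of 49 gene lists (y axis, number tested in parentheses). Points are genes, coloured by call, and black lines are list medians. The antiviral list had the highest median at 1.88 and the quiescence list the lowest at -0.65, and most lists held genes of both directions.

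Genes of the naive and memory state were lower in Male nearly throughout. In the list of naive and memory genes, of 20 genes tested, 1 was called higher, 17 lower and 2 were not called, with a median log2 fold change of -0.59. Tcf7, which encodes the transcription factor TCF1 of naive and stem-like T cells (chr11:52252371-52283014, GRCm38), was at 415, 419.8 and 426 CPM in Female and 150.5, 154 and 157 CPM in Male (log2 fold change -1.45, SE 0.022, edgeR adjusted p 2.07e-11). Bach2, a repressor that holds back effector genes, was at 171, 189 and 178 CPM in Female and 64.8, 65.3 and 62.8 CPM in Male (log2 fold change -1.48, SE 0.036, edgeR adjusted p 4.86e-10). Il7r, the receptor chain for the survival cytokine IL7 (chr15:9505788-9530176), was at 137, 138 and 141 CPM in Female and 25.4, 23.4 and 24.1 CPM in Male (log2 fold change -2.51, SE 0.034, edgeR adjusted p 1.11e-11). Each of the Male samples lay below each of the Female samples for these 3 genes, where 58.4% of all autosomal genes had groups that did not overlap. Lef1, the partner of TCF1, fell by less, with a log2 fold change of -0.85 (adjusted p by edgeR 1.72e-09). Klf2, which keeps T cells in circulation, and its target S1pr1, the exit receptor of lymphoid tissue, had log2 fold changes of -1.38 and -1.18 (adjusted p by edgeR 1.22e-09 and 1.23e-09). Ccr7, the chemokine receptor that brings cells into lymph nodes, fell from 129 ± 4.14 CPM in Female to 68.4 ± 2.18 CPM in Male (SD, n = 3), with a log2 fold change of -0.91 (adjusted p by edgeR 6.25e-09).

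Among genes of quiescence and targets of the transcription factor FOXO, of 21 genes tested, 1 was called higher, 19 lower and 1 was not called, with a median log2 fold change of -0.65. Txnip, an inhibitor of glucose uptake, was at 1072, 1080 and 1072 CPM in Female and 392, 378 and 382 CPM in Male (log2 fold change -1.48, SE 0.018, edgeR adjusted p 6.85e-12). Klhl24 and Ypel3 fell with log2 fold changes of -1.87 and -1.59. The cell cycle inhibitor gene Cdkn1b fell from 175 ± 2.08 CPM in Female to 132 ± 3.24 CPM in Male (SD, n = 3; log2 fold change -0.40, SE 0.025, edgeR adjusted p 3.47e-07). Ccng2 and Rbl2, which act against proliferation, fell with log2 fold changes of -0.49 and -0.50. Pik3ip1, which damps PI3K at the membrane, was at 64.7, 62.6 and 63.3 CPM in Female and 31.6, 31.9 and 30.5 CPM in Male (log2 fold change -1.02, SE 0.032, edgeR adjusted p 2.55e-09). The only member called higher was Sesn1, a stress-induced inhibitor of mTORC1, at 0.16 (edgeR adjusted p 0.0172), a call lost without Female replicate 1, Female replicate 3 or Male replicate 2 (0.0561 to 0.0700).

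Effector molecules were mostly higher in Male. In the cytotoxic list, of 19 genes tested, 15 were called higher, 1 lower and 3 were not called, with a median log2 fold change of 0.62, and 5 further members did not pass the low-count filter. Gzma, a granzyme of the lytic granule (chr13:113093825-113100981), was at 6.07, 5.48 and 5.24 CPM in Female and 53.8, 51.9 and 51.3 CPM in Male (log2 fold change 3.23, SE 0.056, edgeR adjusted p 5.49e-11). Gzmb, the granzyme that starts apoptosis in targets, was at 1066, 1046 and 1015 CPM in Female and 2390, 2440 and 2392 CPM in Male (log2 fold change 1.21, SE 0.018, edgeR adjusted p 1.86e-11). Prf1, the pore former perforin, was at 4.24, 4.24 and 4.47 CPM in Female and 19.9, 21.8 and 19.3 CPM in Male (log2 fold change 2.24, SE 0.07, edgeR adjusted p 2.49e-09). The groups stood far apart for all 3 genes. Serpinb9, which shields the killer cell from its own granzyme B, rose 2.92-fold, with a log2 fold change of 1.55 (adjusted p by edgeR 8.3e-11). The death ligand genes Fasl and Tnfsf10 had log2 fold changes of 0.86 and 0.66.

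Among cytokines, of 17 genes tested, 12 were called higher, 1 lower and 4 were not called, with a median log2 fold change of 0.91. Ifng, the gene for interferon gamma, was low, at 0.378, 0.542 and 0.278 CPM in Female and 2.65, 1.92 and 2.09 CPM in Male (log2 fold change 2.47, SE 0.260, edgeR adjusted p 1.9e-05). Tnf was at 31.0, 33.7 and 32.7 CPM in Female and 65.9, 71.2 and 65.0 CPM in Male (log2 fold change 1.05, SE 0.044, edgeR adjusted p 2.07e-08), and Lta, its neighbour gene for lymphotoxin alpha, had a log2 fold change of 1.02. Il10, an inhibitory cytokine, was at 0.673, 0.957 and 1.25 CPM in Female and 5.35, 4.93 and 5.39 CPM in Male (log2 fold change 2.44, SE 0.199, edgeR adjusted p 2.61e-06). For Ifng, Tnf and Il10 each Male sample was above each Female sample, where 58.4% of all autosomal genes had groups that did not overlap. Lif and Osm, which signal through the same receptor chain gp130, had log2 fold changes of 3.08 and 0.95. Ltb was the only member called lower, at -0.45 (edgeR adjusted p 1.12e-07). Il2 itself did not pass the filter and had 0, 53 and 51 counts in Female and 0 in each Male sample. Of 6 chemokine genes tested, 4 were higher and none lower: Ccl5 (0.77), Ccl4 (1.01), Xcl1 (1.29) and Cxcl10 (0.44). Xcl1 and Ccl4 were low in all samples, and without Male replicate 1 the call of Ccl4 was lost (edgeR adjusted p 0.0505).

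Homing receptors were divided: of 25 genes tested, 9 were called higher, 10 lower and 6 were not called, with a median log2 fold change of -0.30. Ccr2, which draws cells to inflamed tissue, was at 23.8, 24.8 and 26.6 CPM in Female and 134, 126 and 134 CPM in Male (log2 fold change 2.39, SE 0.043, edgeR adjusted p 6.09e-11). Itgal, the alpha chain of the adhesion integrin LFA-1, rose with a log2 fold change of 0.65 and Itgb2, its beta chain, with 0.50. Itga4, the alpha chain of VLA-4, went the other way, at 106, 110.5 and 108 CPM in Female and 44.1, 42.4 and 42.9 CPM in Male (log2 fold change -1.32, SE 0.028, edgeR adjusted p 1.86e-10). S1pr4 also fell, with a log2 fold change of -0.99. Among NK-type receptors, 6 of 10 were higher and 2 lower. Ly6c2 and Klrc1 rose with log2 fold changes of 2.19 and 0.84, and Cd7 fell by 2.13 on the log2 scale. Ly6c2 and Klrc1 share sequence with close relatives.

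The transcription factors that set effector fate did not move as a block: of 21 genes tested, 7 were called higher, 9 lower and 5 were not called, with a median log2 fold change of -0.01, a median whose sign changed with the setting. Eomes, a T-box factor of effector and memory cells, rose from 37.3 ± 1.88 CPM in Female to 120.1 ± 3.88 CPM in Male (SD, n = 3; log2 fold change 1.69, SE 0.039, edgeR adjusted p 3.47e-10). Id2, which blocks E proteins in effector cells, was at 30.5, 28.7 and 30.4 CPM in Female and 81.4, 75.0 and 76.8 CPM in Male (log2 fold change 1.38, SE 0.04, edgeR adjusted p 1.43e-09). Irf8 rose with a log2 fold change of 1.15. In contrast Prdm1, the gene of BLIMP1 in terminal effectors, was at 35.9, 39.2 and 38.2 CPM in Female and 23.6, 20.3 and 21.2 CPM in Male (log2 fold change -0.80, SE 0.059, edgeR adjusted p 1.3e-06). Tbx21, the gene of T-bet, was at 40.5, 39.6 and 39.1 CPM in Female and 36.4, 37.4 and 37.8 CPM in Male, a difference of -0.09 on the log2 scale that was just past the threshold (edgeR adjusted p 0.0384) and missed it in several alternative fits, at an adjusted p of 0.0556 to 0.706. Runx3 and Stat4 fell with log2 fold changes of -0.36 and -0.35, and Ikzf2, the gene of Helios, fell by 1.60.

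**Figure D2:**
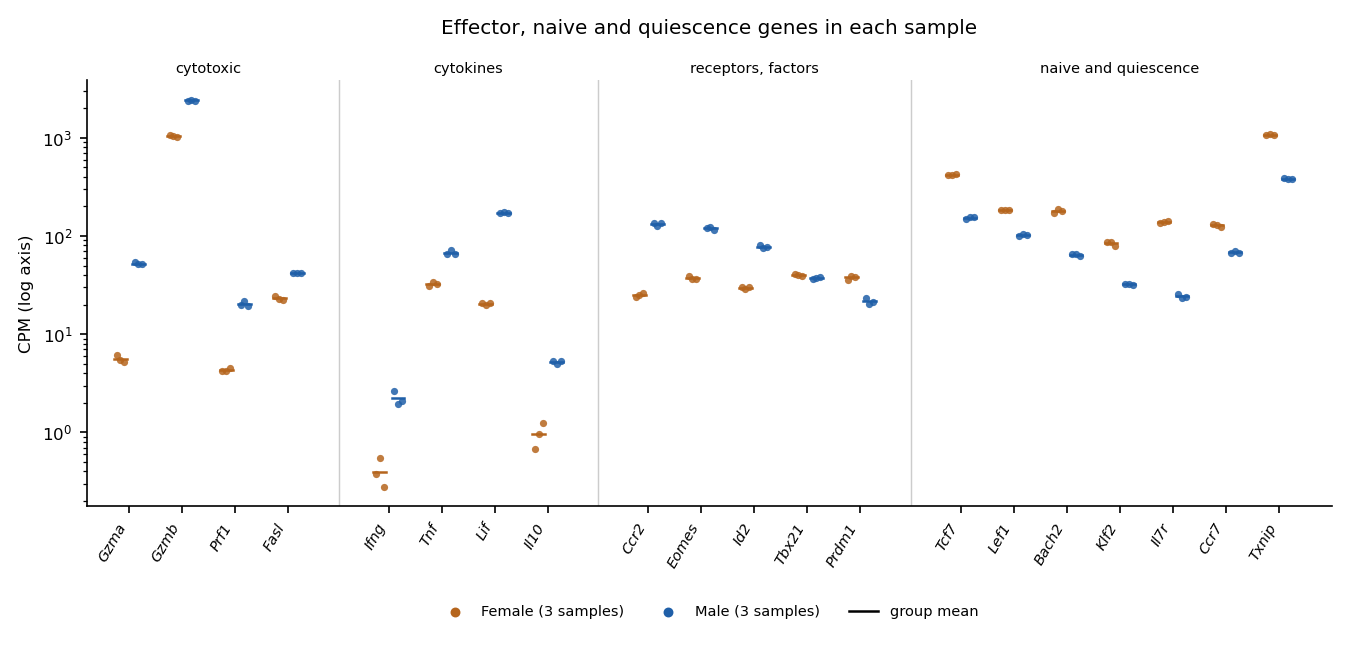
Level in each sample (CPM, log axis) of effector genes, fate factors, and naive and quiescence genes. Dots are samples, 3 a group, and lines are group means. Gzma rose from 5.59 ± 0.427 CPM in Female to 52.3 ± 1.32 CPM in Male and Il7r fell from 139 ± 2.19 CPM in Female to 24.3 ± 1.03 CPM in Male (SD), and the Tbx21 means lay close together.

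Costimulatory receptors and activation markers were divided: of 18 genes tested, 6 were called higher, 9 lower and 3 were not called, with a median log2 fold change of -0.08. Cd69, an early activation marker, was at 85.2, 77.4 and 80.2 CPM in Female and 169, 169 and 164 CPM in Male (log2 fold change 1.05, SE 0.035, edgeR adjusted p 3.52e-09). Tfrc, the transferrin receptor of growing cells, rose with a log2 fold change of 0.83, and the costimulatory receptor gene Tnfrsf9 (4-1BB) with 0.42. Slamf7 rose by 1.71. Cd28, the receptor bound by the beads beside CD3, was at 349, 344 and 352 CPM in Female and 204, 198 and 199 CPM in Male (log2 fold change -0.80, SE 0.021, edgeR adjusted p 6.59e-10). Icos, Cd27 and Tnfrsf4 (OX40) also fell, with log2 fold changes of -0.62, -0.65 and -1.83.

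Of the inhibitory receptors, 5 were higher, 8 lower and 1 was not called of 14 tested, with a median log2 fold change of -0.25. Ctla4, which competes with CD28 for its ligands (chr1:60887000-60915832), was at 689.7, 685 and 685 CPM in Female and 243, 236 and 238 CPM in Male (log2 fold change -1.52, SE 0.018, edgeR adjusted p 6.85e-12). Pdcd1, the gene of PD-1, was at 18.6, 18.4 and 16.9 CPM in Female and 9.07, 9.22 and 8.66 CPM in Male (edgeR adjusted p 3.08e-07). Tigit and Lag3 fell with log2 fold changes of -0.96 and -0.22. Other receptors of the list rose: Cd244a (1.70), Cd160 (0.66), Entpd1 (0.48), which encodes the ectonucleotidase CD39, and Havcr2 (0.56), the gene of TIM-3. Havcr2 was low, at 2.68, 2.05 and 1.81 CPM in Female and 2.82, 3.81 and 2.97 CPM in Male, with an edgeR adjusted p of 0.0279, and this call was lost without the low-count filter (0.0664) and without Female replicate 2, Female replicate 3 or Male replicate 2 (0.0796 to 0.123).

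Genes of the T cell receptor machinery shifted by small amounts. Of 31 genes, 10 were higher and 19 lower, with a median log2 fold change of -0.21. With trends on transcript length and GC content removed the counts were 12 and 14 and the median -0.03. The kinase genes Lck, Fyn and Zap70 and the adaptor Lat rose, with log2 fold changes of 0.26, 0.38, 0.13 and 0.48. Lck was at 514, 515 and 520.3 CPM in Female and 623, 615 and 618 CPM in Male. Inhibitors of the signal were among those that fell, with the diacylglycerol kinase gene Dgka (-0.64), the ubiquitin ligase gene Cblb (-0.46) and Ptpn22 (-0.41). Themis (-0.51) and Malt1 (-0.36), which carry the signal onward, fell as well.

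Of 29 transcription factor genes and regulators induced by the receptor, 8 were higher and 14 lower in Male, with a median log2 fold change of -0.10. Nfkbia, an inhibitor and early target of NF-κB, was at 56.5, 53.4 and 56.2 CPM in Female and 29.8, 31.6 and 31.4 CPM in Male (log2 fold change -0.84, SE 0.038, edgeR adjusted p 3.29e-08). Relb, an NF-κB subunit, was at 74.9, 73.8 and 71.7 CPM in Female and 32.6, 35.5 and 32.9 CPM in Male (log2 fold change -1.13, SE 0.038, edgeR adjusted p 4.22e-09). Rel, Nfkb2 and Tnfaip3, of the same pathway, fell with log2 fold changes of -0.66, -0.53 and -0.92, while Nfkbid and Ier3 rose with 1.03 and 0.90. The largest rises of the list were in AP-1 genes at trace levels: Fosl1 was at 0.118, 0.128 and 0.195 CPM in Female and 0.449, 0.486 and 0.667 CPM in Male (log2 fold change 1.84, SE 0.358, edgeR adjusted p 0.00151) and Fos at 0.814, 0.872 and 0.195 CPM in Female and 1.95, 1.70 and 1.77 CPM in Male (log2 fold change 1.53, SE 0.413, edgeR adjusted p 0.0107). Egr2 rose with 0.71 (edgeR adjusted p 0.0102), and Nr4a1 was not called at 0.02 (edgeR adjusted p 0.801). Irf4, whose level follows receptor strength, was at 174, 176 and 179.7 CPM in Female and 135, 137 and 133 CPM in Male (log2 fold change -0.39, SE 0.023, edgeR adjusted p 2.48e-07). Nr4a2, an orphan receptor gene induced within hours, fell by 0.89 on the log2 scale. Myc, the driver of growth after activation, was at 225, 219 and 217 CPM in Female and 212, 226 and 214 CPM in Male, and its groups overlapped (log2 fold change -0.02, SE 0.029, edgeR adjusted p 0.594); the sign of this difference changed in 2 alternatives.

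Feedback genes of the MAP kinase pathway were divided. Dusp6, a phosphatase of ERK that ERK itself induces, was at 47.4, 42.0 and 45.2 CPM in Female and 74.2, 68.3 and 72.7 CPM in Male (log2 fold change 0.68, SE 0.047, edgeR adjusted p 7.72e-07). Etv5 and Spry4, also induced by ERK, rose from low levels, Etv5 with a log2 fold change of 1.62. Spry4 was at 0.578, 0.627 and 0.936 CPM in Female and 6.11, 4.41 and 5.10 CPM in Male (log2 fold change 2.86, SE 0.208, edgeR adjusted p 1.15e-06). Dusp4 fell with a log2 fold change of -0.78 and Dusp10 with -0.44. Of 15 feedback genes, 6 were higher and 8 lower, and the sign of the median, -0.14, changed with the low-count filter.

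Il2ra and Il2rb, receptor chains for IL2, were higher in Male, and Il7r, Il6ra and Il6st, chains of the IL7 and IL6 receptors, lower. Il2rb, the signalling chain shared by IL2 and IL15, was at 767, 775 and 775 CPM in Female and 1295, 1328 and 1281 CPM in Male (log2 fold change 0.75, SE 0.016, edgeR adjusted p 2.14e-10). Il2ra, the chain that gives high affinity for IL2, was at 922, 923 and 911 CPM in Female and 1094, 1104 and 1081 CPM in Male (log2 fold change 0.25, SE 0.014, edgeR adjusted p 1.66e-07). Il12rb1 and Il10ra rose with log2 fold changes of 0.77 and 0.63. Il12rb2, the other chain of the IL12 receptor, was at 264, 267 and 268 CPM in Female and 274, 277 and 270.4 CPM in Male and was not called (log2 fold change 0.04, SE 0.02, edgeR adjusted p 0.115), but was called higher in 2 alternative fits, at 0.07 and 0.09. In the other direction, Il6ra, Il6st and Il18r1 fell with log2 fold changes of -1.65, -0.68 and -0.59. Csf2rb, the common chain of the GM-CSF and IL5 receptors, which shares sequence with a near relative, was at a trace level, 0.331, 0.308 and 0.237 CPM in Female and 0, 0.022 and 0 CPM in Male (edgeR adjusted p 0.000436). Over the list, 9 of 27 receptor genes were higher and 14 lower. In the JAK-STAT and SOCS list, 7 of 23 genes were higher and 15 lower. Of the feedback inhibitors, Cish, a target of STAT5, was at 181, 180.3 and 174 CPM in Female and 271, 277 and 272 CPM in Male (log2 fold change 0.62, SE 0.023, edgeR adjusted p 9.75e-09), and Socs1 rose with a log2 fold change of 0.53. Socs3 went the other way, at 82.2, 79.9 and 80.6 CPM in Female and 61.1, 59.7 and 60.9 CPM in Male (log2 fold change -0.42, SE 0.025, edgeR adjusted p 2.46e-07), as did Socs2 at -0.47. Stat5b fell by 0.60 on the log2 scale, and Stat5a was not called at 0.09 (edgeR adjusted p 0.0584), but was called higher in 5 alternative fits, at up to 0.24. Stat5a and Stat5b share sequence.

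In the PI3K, AKT and mTOR list, of 29 genes tested, 9 were called higher, 15 lower and 5 were not called, with a median log2 fold change of -0.09. The direction of this list depended on transcript length and GC content: with those trends removed, 15 genes were higher and 11 lower and the median was 0.12. Akt1 rose with a log2 fold change of 0.56, and Inpp5d, the gene of the lipid phosphatase SHIP1, with 0.71. Eif4ebp1, a brake on translation that mTORC1 inactivates, was at 64.5, 58.4 and 61.8 CPM in Female and 97.2, 96.1 and 96.2 CPM in Male (log2 fold change 0.65, SE 0.035, edgeR adjusted p 1.09e-07). The catalytic subunit gene Pik3cd fell with a log2 fold change of -0.29.

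**Figure D3:**
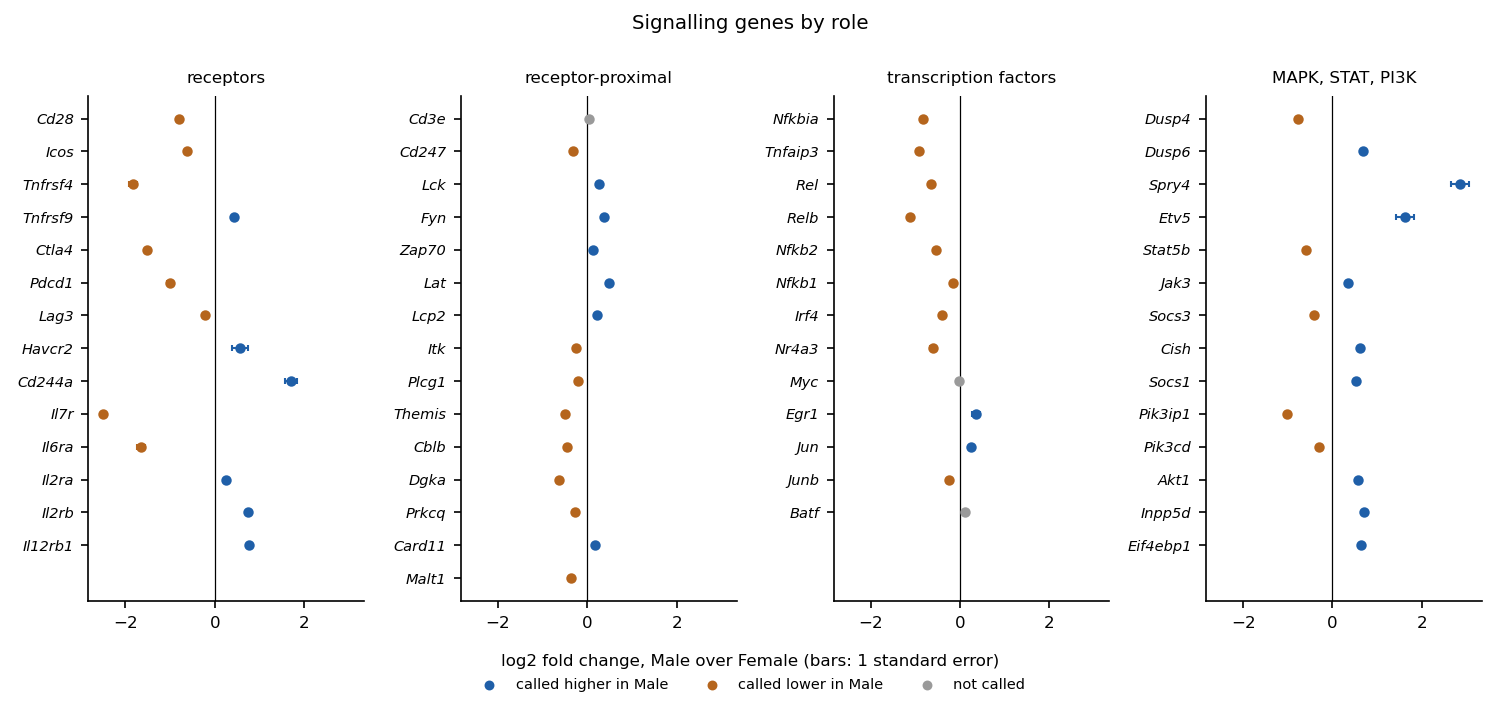
Log2 fold change of Male over Female (x axis, bars 1 standard error) for signalling genes by role (y axis). Blue points were called higher in Male, brown lower, and grey were not called. Ctla4 (-1.52) and Il7r (-2.51) lay far to the left and Cd244a (1.70) and Spry4 (2.86) far to the right.

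Interferon-stimulated genes had the highest median of the 49 lists. All 47 antiviral genes tested were called higher in Male, with log2 fold changes of 0.26 for Tor3a to 4.56 for Ifi44 and a median of 1.88. Without Male replicate 2 Tor3a missed the threshold (edgeR adjusted p 0.0529). Promoter windows of 2 of its genes are shown because they carry the motif GAAANNGAA, a core of the interferon-stimulated response element bound by the complex that holds STAT2 and IRF9. Sequences are from RefSeq for GRCm38.p6, written 5′ to 3′ on the strand of the gene, and the capitals mark the motif on either strand, overlapping matches merged. The Ifit1 window lies at chr19:34640755-34640838 on the plus strand, and the Isg15 window at chr4:156200851-156200921 on the minus strand.
Ifit1: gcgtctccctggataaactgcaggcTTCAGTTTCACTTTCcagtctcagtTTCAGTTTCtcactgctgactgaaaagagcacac
Isg15: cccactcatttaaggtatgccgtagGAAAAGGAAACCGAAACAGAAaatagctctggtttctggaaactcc

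Each window held 3 matches, those of Ifit1 on the opposite strand to the gene. The 13694 promoters of tested genes, 300 bases each, belonged to 10818 of 19508 genes, and a gene with several promoters was counted several times. Of these promoters, 7.31% held GAAANNGAA on either strand. The share was 8.97% among 3599 promoters of genes called higher and 6.31% among 4926 of genes called lower. It was 21.1% among 399 of genes at least 2-fold higher and 7.98% among 652 at least 2-fold lower. Of 44 promoters of the antiviral list, 54.5% held it, and this list was not left out of the 399. The windows of Mx1 and Irf7 held no match to GAAANNGAA, which says only that these letters are not in them. The AP-1 motif TGANTCA was also more frequent among the 399, at 12.8%, and in the antiviral list, at 15.9%. Its share was 6.6% among the 652 and 5.32% among all. A match is a description of the sequence and not a site of binding.

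Mx1, a GTPase that blocks influenza virus (chr16:97447035-97462907), was at 4.37, 4.76 and 4.49 CPM in Female and 68.8, 69.5 and 65.9 CPM in Male (log2 fold change 3.91, SE 0.046, edgeR adjusted p 6.85e-12). Isg15, a ubiquitin-like modifier, was at 5.45, 4.66 and 5.03 CPM in Female and 42.7, 40.3 and 43.2 CPM in Male (log2 fold change 3.06, SE 0.062, edgeR adjusted p 1.35e-10). Ifit1, which binds foreign RNA, was at 20.3, 19.9 and 20.7 CPM in Female and 45.4, 50.2 and 46.8 CPM in Male (log2 fold change 1.22, SE 0.045, edgeR adjusted p 7.16e-09). Oas2, an activator of RNase L, rose from under 1 CPM, 0.567, 0.808 and 0.535 CPM in Female and 11.4, 12.2 and 10.9 CPM in Male (log2 fold change 4.17, SE 0.153, edgeR adjusted p 7.38e-09). Usp18, the negative regulator of the interferon receptor, rose 10.0-fold, a log2 fold change of 3.33. The spread between samples of a group was small beside each of these differences. Next to Tor3a, the smallest rise of the list was that of Ifi27, at 0.58. Each of Ifit1 and Isg15 shares a part of its sequence with another locus.

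The components above these targets did not all follow. Ifnar1, a chain of the type I interferon receptor, was at 208, 213 and 205 CPM in Female and 146, 147 and 148 CPM in Male (log2 fold change -0.50, SE 0.023, edgeR adjusted p 3.39e-08), lower in Male. Ifnar2 also fell, with a log2 fold change of -0.24, as did the kinases Jak1 (-0.12) and Tyk2 (-0.35). With length and GC trends removed Jak1 was not called (edgeR adjusted p 0.399). The transcription factor genes Stat2 and Irf9, which are interferon targets themselves, rose with log2 fold changes of 1.26 and 0.71. Irf7, the factor that amplifies interferon production, rose from 18.9 ± 0.091 CPM in Female to 98.4 ± 2.40 CPM in Male (SD, n = 3; log2 fold change 2.38, SE 0.03, edgeR adjusted p 1.11e-11). In the list of nucleic acid sensors and interferon genes, 8 of 16 were higher and 2 lower, with a median of 0.23. Irf1, a target of interferon gamma, fell with a log2 fold change of -0.23. Interferon genes themselves were at the edge of detection. Ifnb1 had 0 counts in each Female sample and 0, 8 and 6 in Male. Ifna4 had 0 in Female and 13, 10 and 5 in Male. Ifna5 had 0 in Female and 6, 12 and 0 in Male.

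The interferon-induced GTPases were less uniform: of 16 genes tested, 12 were called higher, 2 lower and 2 were not called, with a median log2 fold change of 0.46. Iigp1 and Irgm1, which attack vacuoles of intracellular parasites, rose with log2 fold changes of 2.31 and 1.27. Gbp2, a guanylate-binding protein, was at 64.2, 64.4 and 60.7 CPM in Female and 119.5, 117 and 113 CPM in Male (log2 fold change 0.89, SE 0.033, edgeR adjusted p 7.64e-09). Gbp5 and Gbp8 fell by 0.24 and 0.15 on the log2 scale. Gbp8 shares sequence with a neighbour of its family. In the MHC class I list, 14 of 18 genes were higher and none lower, with a median of 0.32. Psme1, a subunit of the proteasome activator PA28, rose with a log2 fold change of 1.23 and the immunoproteasome subunit gene Psmb10 with 0.84. B2m, the light chain of class I, was at 579.6, 597 and 583 CPM in Female and 794, 801 and 749 CPM in Male (log2 fold change 0.41, SE 0.026, edgeR adjusted p 3.25e-07). The heavy chain genes share sequence with each other, and H2-K1 rose with a log2 fold change of 0.19.

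Genes of glucose uptake, glycolysis and lactate export were mostly higher in Male. In the list of glucose transport and glycolysis, of 25 genes tested, 18 were called higher, 5 lower and 2 were not called, with a median log2 fold change of 0.56. Slc2a1, the glucose transporter GLUT1, was at 60.2, 59.8 and 57.5 CPM in Female and 136, 139 and 136 CPM in Male (log2 fold change 1.21, SE 0.027, edgeR adjusted p 2.54e-10). Hk2, the hexokinase that traps glucose in activated cells (chr6:82725025-82774454), was at 54.6, 59.7 and 58.0 CPM in Female and 153, 151 and 157 CPM in Male (log2 fold change 1.42, SE 0.034, edgeR adjusted p 4.35e-10). Pfkl and Tpi1 rose with log2 fold changes of 1.24 and 1.29. Ldha, which turns pyruvate into lactate, was at 666, 654 and 649 CPM in Female and 1424, 1416 and 1405 CPM in Male (log2 fold change 1.11, SE 0.015, edgeR adjusted p 1.11e-11), and Slc16a3, the lactate exporter MCT4, at 66.1, 64.8 and 67.8 CPM in Female and 155, 155 and 161 CPM in Male (log2 fold change 1.25, SE 0.028, edgeR adjusted p 2.6e-10). The groups did not overlap for any of these 4 genes measured by sample, nor for 23 of the 25 genes of the list and 58.4% of all autosomal genes. Of the 5 lower genes, 2 fell at least 2-fold, both at low levels: the enolase Eno2, at 2.93, 2.68 and 2.35 CPM in Female and 0.995, 0.745 and 0.837 CPM in Male (log2 fold change -1.62, SE 0.176, edgeR adjusted p 2.34e-05), and a minor locus that shares the symbol Aldoa with the main aldolase gene, with a log2 fold change of -1.21. Pfkfb3, whose product makes the activator of phosphofructokinase, fell by 0.44 on the log2 scale from a higher level. Ldha and Tpi1 share sequence with pseudogenes. Hif1a, a driver of these genes, was at 780.0, 793 and 785 CPM in Female and 809.6, 795 and 800.3 CPM in Male and was not called (log2 fold change 0.03, SE 0.015, edgeR adjusted p 0.139). It was called higher, by 0.06 to 0.10 on the log2 scale, in 3 alternative fits. Of 19 genes of the list of targets of hypoxia-inducible factor, Hif1a included, 10 were higher and 4 lower. Egln3 and Bnip3 rose with log2 fold changes of 0.57 and 0.88, while Pdk1, which closes the entry of pyruvate into mitochondria, fell by 0.12 on the log2 scale and Mxi1 by 0.81. With length and GC trends removed Pdk1 was not called (edgeR adjusted p 0.808).

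Branches that leave glycolysis were higher as well. In the pentose phosphate pathway 5 of 7 genes were higher, with Pgd at 90.1, 91.8 and 88.7 CPM in Female and 180.2, 179 and 180.3 CPM in Male (log2 fold change 0.99, SE 0.023, edgeR adjusted p 3.36e-10) and Tkt with a log2 fold change of 0.82. For serine and one-carbon metabolism, of 15 genes tested, 12 were called higher, 1 lower and 2 were not called, with a median log2 fold change of 0.42. Phgdh, the first enzyme of serine synthesis, was at 241, 241 and 238 CPM in Female and 431, 448 and 432 CPM in Male (log2 fold change 0.86, SE 0.021, edgeR adjusted p 4.25e-10). Shmt1, Mat2a and Psat1 rose with log2 fold changes of 1.18, 1.08 and 0.67. For nucleotide synthesis, of 24 genes tested, 14 were called higher, 5 lower and 5 were not called, with a median log2 fold change of 0.22. Cad, which starts pyrimidine synthesis, was at 179.7, 187 and 183 CPM in Female and 339.5, 338 and 336 CPM in Male (log2 fold change 0.88, SE 0.021, edgeR adjusted p 4.15e-10), whereas Dck, a kinase that salvages deoxynucleosides, fell with a log2 fold change of -0.37. Phgdh shares sequence with a pseudogene.

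Amino acid transport was mixed, with 7 of 14 genes higher, 4 lower and a median of 0.04. Slc7a5, the LAT1 transporter of leucine, was at 535, 546 and 533 CPM in Female and 981, 992 and 987 CPM in Male (log2 fold change 0.87, SE 0.016, edgeR adjusted p 6.64e-11). Its partner Slc3a2 and the glutamine carrier Slc1a5 rose with log2 fold changes of 0.46 and 0.60, while Slc43a2 and Slc36a4 fell with -0.56 and -0.78. Atf4, the factor of the amino acid response, was at 234, 230.0 and 239.8 CPM in Female and 428, 424 and 424 CPM in Male (log2 fold change 0.86, SE 0.021, edgeR adjusted p 4.51e-10). Of its targets and the tRNA synthetases, 17 of 24 were higher and 5 lower. Chac1 and Lars rose with log2 fold changes of 1.15 and 0.89, but Cebpg and Nupr1 fell with -0.45 and -0.56. The largest fall of the list, at -1.02, was that of a member not reported here.

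Cholesterol synthesis had the second highest median of the lists: of 25 genes tested, 22 were called higher, 1 lower and 2 were not called, with a median log2 fold change of 1.29. Srebf2, the gene of the transcription factor SREBP2 that drives the pathway, was at 341, 347 and 350.1 CPM in Female and 512, 521 and 512 CPM in Male (log2 fold change 0.57, SE 0.018, edgeR adjusted p 2.95e-09). Sqle, an early enzyme of the sterol branch (chr15:59315077-59331192), was at 59.6, 56.1 and 56.6 CPM in Female and 134, 131 and 133 CPM in Male (log2 fold change 1.21, SE 0.029, edgeR adjusted p 3.67e-10). Msmo1, which removes methyl groups from sterol intermediates, was at 18.4, 19.8 and 19.6 CPM in Female and 84.4, 83.9 and 82.4 CPM in Male (log2 fold change 2.12, SE 0.036, edgeR adjusted p 4.56e-11). Each Male sample exceeded each Female sample for these 3 genes, where 58.4% of all autosomal genes had groups that did not overlap. Idi1 and Fdps, of the path to squalene, rose with log2 fold changes of 1.99 and 2.16. Insig2, which holds SREBP2 back, fell by 0.18 on the log2 scale. Fdps and Idi1 share sequence with other loci. Of 23 promoters of this list, 1 (4.35%) held TCACNCCAC, a form of the sterol regulatory element, on either strand, against 1.19% of all 13694. The E-box CACGTG was in 26.1% of them, against 9.42% of all.

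Export of cholesterol went the other way. Abcg1, a transporter that loads cholesterol onto lipoprotein, was at 180.1, 184 and 176 CPM in Female and 87.1, 81.0 and 85.3 CPM in Male (log2 fold change -1.09, SE 0.031, edgeR adjusted p 1.37e-09). Abca1, which acts with it, was at 4.47, 4.06 and 4.84 CPM in Female and 2.08, 2.38 and 2.16 CPM in Male (log2 fold change -1.02, SE 0.126, edgeR adjusted p 6.36e-05). Nr1h3, the gene of their activator LXR alpha, was near 1 CPM and fell with a log2 fold change of -1.36 (adjusted p by edgeR 0.00826). Of 9 genes of export and of LXR, 5 were lower and 2 higher, the latter Soat1 (0.25) and Lpcat3 (0.75).

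**Figure D4:**
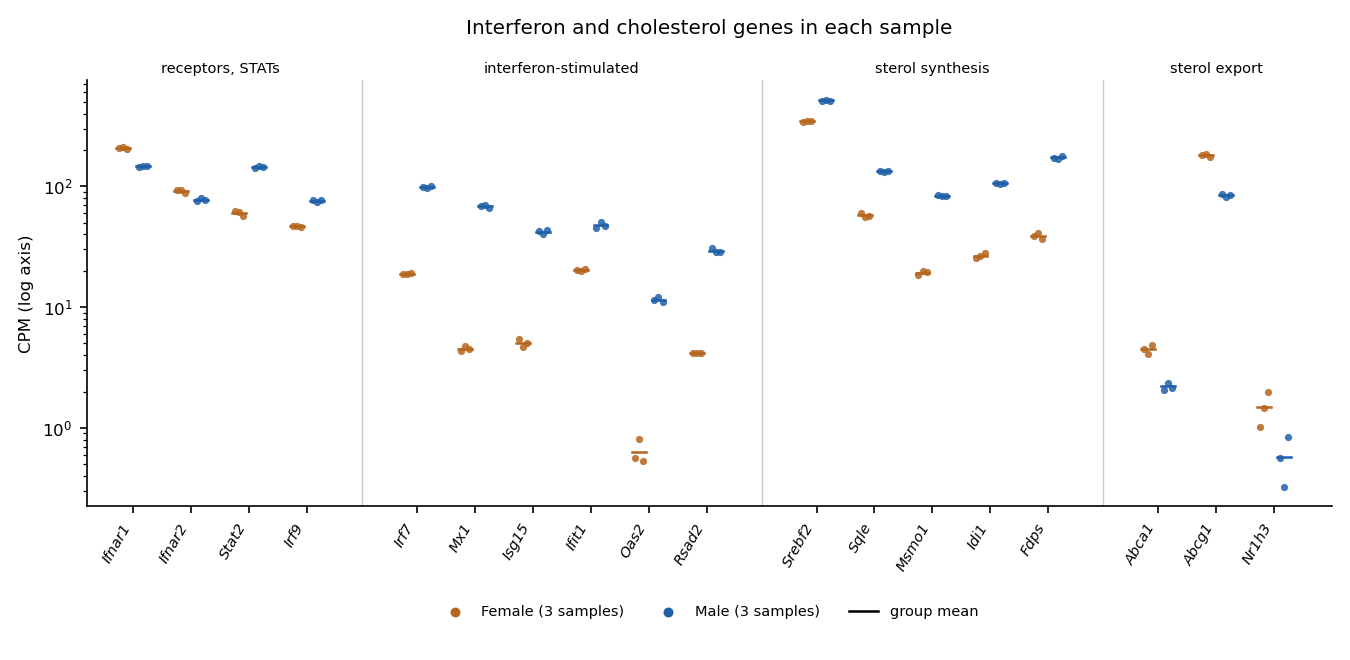
Level in each sample (CPM, log axis) of interferon and cholesterol genes. Dots are samples, 3 a group, and lines are group means. Mx1 rose from 4.54 ± 0.204 CPM in Female to 68.1 ± 1.91 CPM in Male and Msmo1 from 19.2 ± 0.773 CPM in Female to 83.6 ± 1.02 CPM in Male (SD), whereas Ifnar1, Ifnar2, Abca1 and Abcg1 were lower in Male.

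Fatty acid synthesis and desaturation also rose: of 21 genes tested, 16 were called higher, 2 lower and 3 were not called, with a median log2 fold change of 0.59. Fasn, fatty acid synthase, was at 287, 308 and 296 CPM in Female and 759.8, 759 and 755 CPM in Male (log2 fold change 1.35, SE 0.025, edgeR adjusted p 7.22e-11). Fads2, a desaturase of polyunsaturated fatty acids, was at 40.4, 40.1 and 40.6 CPM in Female and 165, 168 and 166 CPM in Male (log2 fold change 2.04, SE 0.023, edgeR adjusted p 6.63e-12). Acaca, the first committed step, and Scd1, a desaturase, rose with log2 fold changes of 0.71 and 1.48. Dgat1, which stores fatty acid as triglyceride, fell with a log2 fold change of -0.85. Acaca shares sequence with a pseudogene. Oxidation of fatty acids showed no such direction, with 8 genes higher and 9 lower of 21 and a median of -0.02, whose sign changed with the setting. Cpt1a, the gate of fatty acids into mitochondria, was at 106, 107 and 105 CPM in Female and 73.5, 72.2 and 71.9 CPM in Male (log2 fold change -0.54, SE 0.023, edgeR adjusted p 2.18e-08), and Acadl rose with a log2 fold change of 0.47.

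Mitochondrial genes of the nucleus were higher by small amounts. In the TCA cycle list, of 29 genes tested, 23 were called higher, 2 lower and 4 were not called, with a median log2 fold change of 0.25. Cs, citrate synthase, was at 323, 326 and 319 CPM in Female and 354, 356 and 356 CPM in Male (log2 fold change 0.14, SE 0.018, edgeR adjusted p 9.27e-05). Idh3a and Pcx, the carboxylase that refills the cycle, rose with log2 fold changes of 0.64 and 0.75, and Idh2 and Glud1 fell with -0.36 and -0.17. Glud1 shares a part of its sequence with a pseudogene. Of the nuclear subunits of the respiratory chain, 59 of 69 were higher and 3 lower, with a median of 0.36, which became 0.24 with trends on length and GC content removed. Atp5g1 and Uqcrb had log2 fold changes of 1.01 and 1.00, and Cycs, cytochrome c, was at 38.1, 34.5 and 35.5 CPM in Female and 61.6, 58.8 and 61.1 CPM in Male (log2 fold change 0.75, SE 0.041, edgeR adjusted p 1.41e-07). These 3 genes share sequence with other loci. The mitochondrial ribosomal proteins had 49 of 78 genes higher and 4 lower, with a median of 0.21.

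**Figure D5:**
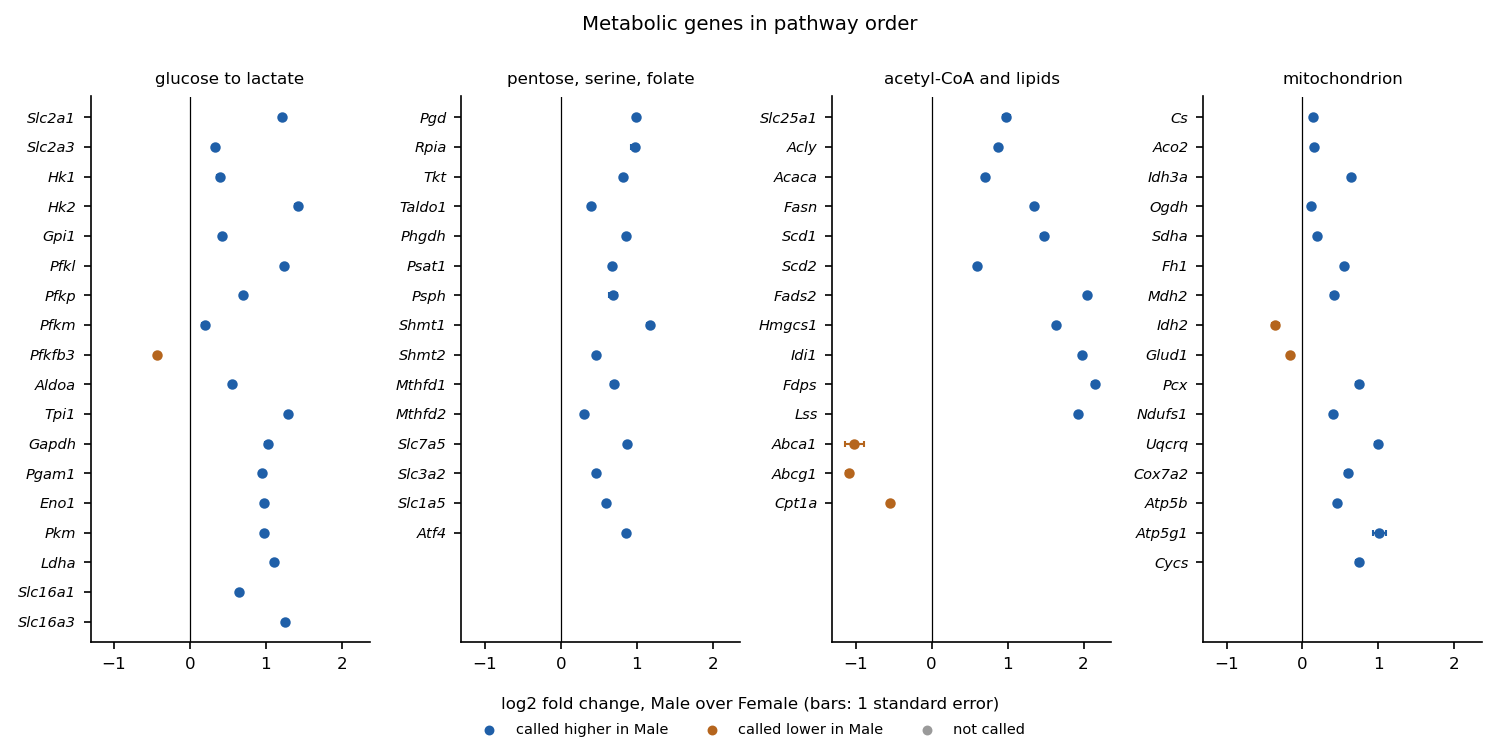
Log2 fold change of Male over Female (x axis, bars 1 standard error) for metabolic genes in pathway order (y axis). Blue points were called higher in Male, brown lower. Most genes lay to the right of 0, up to Fdps at 2.16, and Pfkfb3, Abca1, Abcg1, Cpt1a, Idh2 and Glud1 to the left.

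Genes that build ribosomes were higher, and the proteins of the ribosome were divided. In ribosome biogenesis, of 37 genes tested, 35 were called higher, 1 lower and 1 was not called, with a median log2 fold change of 0.60. Ncl, nucleolin, was at 545, 515 and 543 CPM in Female and 668, 674 and 681 CPM in Male (log2 fold change 0.34, SE 0.023, edgeR adjusted p 6.65e-07), and Nop56, a core protein of box C/D particles, at 117, 113 and 119 CPM in Female and 207, 205 and 205 CPM in Male (log2 fold change 0.82, SE 0.024, edgeR adjusted p 1.68e-09). Mybbp1a and Nolc1 rose with log2 fold changes of 1.22 and 1.00. Odc1, the first enzyme of polyamine synthesis, rose with 0.79. Of 79 cytosolic ribosomal proteins 12 were higher and 24 lower, with a median of -0.03. Their counts were 7 and 46 with length and GC trends removed and 25 and 14 with only protein-coding genes fitted, so the direction of this list depended on the processing.

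Genes of protein folding and breakdown were mostly higher. All 31 proteasome subunits were called higher, with a median of 0.51, led by Psmb2 (1.09) and Psma2 (0.96). In the unfolded protein response, of 20 genes tested, 15 were called higher, 2 lower and 3 were not called, with a median log2 fold change of 0.68. Hspa5, the chaperone BiP of the endoplasmic reticulum, was at 220.4, 219.5 and 225 CPM in Female and 456, 454 and 453 CPM in Male (log2 fold change 1.04, SE 0.018, edgeR adjusted p 6.09e-11), and Xbp1 at 172, 165 and 161 CPM in Female and 236, 238 and 230.0 CPM in Male (log2 fold change 0.50, SE 0.028, edgeR adjusted p 1.56e-07). Hspd1 and Hsp90aa1, chaperones of mitochondria and cytosol, rose with log2 fold changes of 1.07 and 1.24, and both have pseudogene copies. In the heat shock list 13 of 16 genes were higher and 1 lower. Of the NRF2 antioxidant genes, 13 of 16 were higher, with Prdx1 at 1.26 and Hmox1 at 0.67. Lysosome and autophagy genes leaned the other way, with 6 higher and 11 lower of 20. Tfeb, their activator, and Npc1 fell with log2 fold changes of -0.62 and -0.74, and Ctsd, a lysosomal protease, was at 140.1, 139 and 141 CPM in Female and 200.4, 199 and 197 CPM in Male (log2 fold change 0.50, SE 0.021, edgeR adjusted p 1.93e-08).

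The cell cycle lists diverged. For DNA replication and G1/S, of 35 genes tested, 10 were called higher, 19 lower and 6 were not called, with a median log2 fold change of -0.14. E2f2 and Cdt1 fell with log2 fold changes of -0.59 and -0.38, whereas Mcm2, a subunit of the replicative helicase, was at 229, 225 and 228 CPM in Female and 286, 283 and 289 CPM in Male (log2 fold change 0.33, SE 0.02, edgeR adjusted p 2.75e-07) and Pcna, the sliding clamp, rose with 0.23. With length and GC trends removed the counts were 12 higher and 15 lower. For G2/M and mitosis, of 37 genes tested, 27 were called higher, 3 lower and 7 were not called, with a median log2 fold change of 0.21. Ccnb1, cyclin B1, was at 62.7, 64.4 and 64.7 CPM in Female and 119.7, 119 and 112 CPM in Male (log2 fold change 0.87, SE 0.031, edgeR adjusted p 5.81e-09), and Plk1 and Cdk1 rose with log2 fold changes of 0.76 and 0.61. Among cyclins D, their kinases and inhibitors, 6 of 15 were higher and 7 lower. Ccnd3 rose with a log2 fold change of 0.61, Ccnd2 with 0.06 (edgeR adjusted p 0.00977), and Rb1 fell with -0.83. The call of Ccnd2 was lost without Female replicate 1, Male replicate 1 or Male replicate 2 (0.0533 to 0.0637). The share of cells in each phase cannot be read from these levels.

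Of 16 tested genes of the BCL2 family, which set cell death against survival, 8 were lower, 2 higher and 6 not called. Bcl2l11, the killer BIM that ends T cell responses, was at 262, 264 and 263 CPM in Female and 157, 156 and 159 CPM in Male (log2 fold change -0.74, SE 0.02, edgeR adjusted p 8.55e-10). Bmf and Bbc3, of the same BH3-only class, fell with log2 fold changes of -1.74 and -1.28. Of the protectors, Bcl2 was at 1222, 1254 and 1237 CPM in Female and 1008, 983 and 1001 CPM in Male (log2 fold change -0.31, SE 0.016, edgeR adjusted p 6.79e-08), whereas Bcl2l1, the gene of BCL-XL, rose with 0.21 (edgeR adjusted p 2.66e-05). The other member called higher was the killer Bak1, at 0.57. Of 23 targets of p53, which include Bbc3, 11 were lower, 5 higher and 7 not called. Trp53inp1, a stress-induced promoter of cell death, fell with a log2 fold change of -1.18, and Cdkn1a (p21) rose by 0.12.

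The cytoskeleton list was higher for 21 of 27 genes, with a median of 0.42. Cfl1, which severs actin filaments, and Pfn1, which loads actin monomers, rose with log2 fold changes of 0.99 and 0.58. Vim, vimentin, was at 1423, 1428 and 1428 CPM in Female and 1567, 1586 and 1546 CPM in Male (log2 fold change 0.13, SE 0.013, edgeR adjusted p 9.1e-06).

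Chromatin enzymes of the autosomes were lower by small amounts: of 36 histone demethylase, methyltransferase and DNA methylation genes, 22 were lower and 4 higher, with a median of -0.11. With length and GC trends removed 15 were lower and 11 higher, with a median of -0.01. Kdm5a and Kdm5b, the autosomal relatives of Kdm5d, were both lower. Kdm5a was at 190.4, 199 and 197 CPM in Female and 164, 162 and 169 CPM in Male (log2 fold change -0.24, SE 0.026, edgeR adjusted p 2.23e-05), and Kdm5b at 66.5, 66.8 and 66.6 CPM in Female and 58.2, 57.6 and 57.6 CPM in Male (log2 fold change -0.21, SE 0.024, edgeR adjusted p 4.72e-05). With those trends removed neither was called, at -0.01 (edgeR adjusted p 0.754) for Kdm5a and 0.01 (edgeR adjusted p 0.86) for Kdm5b. Tet1, an enzyme that oxidizes methylated cytosine, fell with a log2 fold change of -1.40, and Tet2 rose with 0.44. Ezh2, the methyltransferase of lysine 27 of histone H3, was at 204, 197 and 202 CPM in Female and 171, 171 and 170.4 CPM in Male (log2 fold change -0.23, SE 0.022, edgeR adjusted p 7.05e-06).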

How the data were processed

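RNA of 6 samples was analysed, 3 titled Female and 3 titled Male. The authors deposited 1 table of raw counts per gene identifier for them. Per the submitters' processing notes, bcl2fastq 2.20.0, HISAT2, StringTie and DESeq2 were used with build mm10. Their settings, the handling of strand and the rule for reads of repeated sequence were not given in the sources used here. The groups set by the counts of Kdm5d were the same as those of the titles, and the titles labelled the samples in the fit. The table of the other 6 samples, which were electroporated, was not used.

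Symbols and coordinates came from the reference annotation (GRCm38), which matched 55227 of 55487 identifiers. Unmatched identifiers held 2.92 to 3.08% of the counts. The deposited counts were tested with edgeR 4.0.16 in R 4.3.3 (TMM factors, filterByExpr, the quasi-likelihood test). Benjamini-Hochberg adjustment ran over all 20208 genes that passed the filter, and the 19508 on chromosomes 1 to 19 were described. On simulated data, 200 of 20208 genes were changed by 1 log2 unit, drawn without those of lowest level. Of these, 89.5% were recovered, and 7.73% of the calls were false. Far more genes were called in the real data and most differed by less, so neither rate carries over to them.

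The members and gene lists were chosen with earlier results of these data known. In 3 lists a symbol held by 2 loci counted as 2 genes. Named genes were anchors of each list, the 4 called genes of largest change in each list and direction, and the 15 protein-coding genes of smallest p in each direction outside the lists. The last 2 needed groups that did not overlap and a mean of at least 5 CPM, and not all were printed: some genes of the lists are not reported here. Aldoa, Cd244a, Cd27, Cd7, Col1a2, Csf2rb, Eno2, Etv5, Fasl, Fos, Fosl1, Icos, Ifi27, Ifi44, Ifnar2, Il10, Itga2b, Itgb2, Jak1, Malt1, Nfkb2, Nr1h3, Pf4, Pfn1, Ptpn22, Rel, Runx3, Spry4, Stat4, Tnfsf10, Tor3a, Tyk2 and Usp18 were named after their values were seen, and the genes of the figures were picked by role, also with values known. Alternatives were DESeq2 1.42.0, limma 3.58.1, other scaling factors and filters, fewer reads, protein-coding genes only, removal of trends on transcript length and GC content, a replicate block and leaving out each sample. Sequence shared with other genes was counted as 31-base words, and over 10% is reported as shared.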

Additional observations from a re-analysis of the deposited data

How the results depend on the processing

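The main test called 9731 autosomal genes, 4602 higher and 5129 lower. The other scaling factors, tests, filters, fewer reads, protein-coding genes only and the removal of length and GC trends gave 8263 to 9804 calls, and an adjusted p under 0.01 gave 7710. The number of genes tested differed between them, so the share called depended on the filter. It was 8549 of 11931 with a mean of at least 2 CPM and 9130 of 28093 without the low-count filter. Where a difference of at least 1 on the log2 scale was also required, 1421 remained, 678 higher and 743 lower, and the stricter rule itself gives fewer. Leaving out 1 sample in turn gave 8881 to 9079 calls, 4042 to 4278 higher and 4772 to 4930 lower, with fewer samples in the fit. The replicate block gave 9412 calls, 4418 in the direction of Male and 4994 in that of Female, and shared 9245 of them with the fit without it. Samples of the same number did not deviate together across groups (correlations of 0.0029, 0.0028 and 0.0174). With 3 samples a group this cannot settle whether a number marks a shared preparation, and the labels do not say what it means.

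Of 49 lists, 43 kept the sign of their median in each alternative. With a mean of at least 2 CPM the median became 0.058 for MAP kinase feedback and 0.04 for effector transcription factors, and Myc became 0.0077. With protein-coding genes only the medians were 0.047 for effector transcription factors, 0.035 for fatty acid oxidation and 0.023 for cytosolic ribosomal proteins, and Myc became 0.033. With length and GC trends removed they were 0.12 for PI3K, AKT and mTOR genes and 0.04 for fatty acid oxidation, and Kdm5b became 0.0069. Without the low-count filter fatty acid oxidation became 0.11. With counts divided by 4 effector transcription factors became 0.001, and with 1 sample left out they ranged from -0.031 to 0.006, the latter without Male replicate 3. The list of cyclins ranged from -0.195 to 0.039, the latter without Male replicate 1. The causes of these changes of sign were not tested. The log2 fold change of Nr4a1, which was not called, ranged from -0.015 to 0.0745 with 1 sample left out. Of 263 named genes, 247 kept their sign and their side of the threshold wherever they were tested. Depth limits the genes of a few counts most. For plain read counts a 0 allows up to 3, but how these counts were made was not given.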

Other observations

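Genes in none of the 49 lists were also among those with the smallest p-values. Sdc3, a heparan sulfate proteoglycan of the cell surface, was at 4.20, 3.74 and 4.10 CPM in Female and 29.6, 31.4 and 31.3 CPM in Male (log2 fold change 2.94, SE 0.061, edgeR adjusted p 1.62e-10). Fgl2, which encodes a secreted protein with immunosuppressive activity, was at 52.0, 53.6 and 57.2 CPM in Female and 214, 205 and 212 CPM in Male (log2 fold change 1.96, SE 0.036, edgeR adjusted p 7.58e-11). Zbtb32, a repressor of the zinc finger and BTB family, was at 41.0, 40.5 and 43.1 CPM in Female and 126, 128 and 125 CPM in Male (log2 fold change 1.60, SE 0.03, edgeR adjusted p 7.88e-11). Helz2 and Trim30d rose with log2 fold changes of 1.41 and 2.44. The interferon-inducible genes Ifitm1, Ifitm3, Ifi206, Ifi208, Ifi209 and Ifi213 rose with 2.55, 3.38, 2.06, 2.55, 1.86 and 2.49, and these 6 and Trim30d share sequence with relatives.

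Among those lower, Klf10, a repressor induced by TGF-β, was at 154, 153 and 152 CPM in Female and 54.9, 54.1 and 52.7 CPM in Male (log2 fold change -1.51, SE 0.025, edgeR adjusted p 3.68e-11). Mxd4, a partner of MAX that opposes MYC, was at 63.0, 62.3 and 63.9 CPM in Female and 15.2, 16.8 and 15.8 CPM in Male (log2 fold change -1.99, SE 0.041, edgeR adjusted p 1.75e-10). Cmah, which makes a form of sialic acid and shares a part of its sequence with another locus, was at 189, 190.3 and 190.2 CPM in Female and 73.4, 76.8 and 73.5 CPM in Male (log2 fold change -1.35, SE 0.025, edgeR adjusted p 8.3e-11). Hdac7, a histone deacetylase of the T lineage, and Pde4d, which breaks down cyclic AMP, fell with log2 fold changes of -0.78 and -1.09. Prkch and Grap, which act below the antigen receptor, fell with -0.91 and -1.18. The groups of all genes of this paragraph did not overlap because the rule that named them required it.

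Ighm, the heavy chain gene of IgM, was at 604, 609 and 605 CPM in Female and 313, 318 and 299 CPM in Male (log2 fold change -0.97, SE 0.023, edgeR adjusted p 4.35e-10) while Ms4a1 had 0 counts in each sample. Il5 did not pass the low-count filter and had 3, 0 and 0 counts in Female and 8, 6 and 5 in Male.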
